A study of Mus musculus with 16 samples.

Results

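The genes described here are 9 genes by which resident and alternatively activated macrophages are commonly recognized: *Retnla*, *Chil3*, *Mrc1*, *Cd163*, *Folr2*, *Lyve1*, *Timd4*, *Cd209f* and *Cbr2*. They were taken by symbol from the 26382 genes of the mouse muscle table, and all 9 were listed there. The set was selected on the levels of these genes in HRS and PBS muscle, *Retnla* having the largest difference that was lower in every mouse, so differences between HRS and PBS muscle in these genes are given as a description, with no p-value. HRS is histidyl-tRNA synthetase (Jo-1), a common autoantigen of inflammatory myopathy, and the study injected the recombinant protein into mouse hamstring to induce myositis.

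Hamstring RNA was sequenced in bulk, with poly(A) selection, in 16 libraries from 9 female C57BL/6 mice of 8 to 10 weeks, 14 days after injection. The HRS legs were the left legs of 5 mice (m862 to m866; HRS at 3 to 5 mg/mL), and the contralateral PBS legs were the right legs of the same 5 mice. The PBS-only group comprised 4 legs of only 2 mice (m867 and m868), and a single leg, of unstated side, was sequenced from each of 2 further mice, m860 and m861. The titles of these last libraries name an MBP fusion of the antigen at 2 to 3 mg/mL, while their treatment label is that of the HRS legs, so they were kept apart as HRS-MBP. The titles assign HRS to 1 leg per mouse, whereas the protocol describes injection of both hamstrings, and the titles were followed. No source gives the sequencer or run of a library, so any effect of these was not tested.

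Macrophages in healthy tissue persist locally, take up debris, hemoglobin, hyaluronan and glycoproteins through dedicated receptors, and are maintained by the growth factors CSF1 and IL-34. IL-4 and IL-13 bind receptors that share the IL-4 receptor α chain, activate the transcription factor STAT6 and induce the program called alternative activation, of which *Retnla* and *Chil3* are classic mouse targets. In injured or inflamed muscle, monocytes enter from blood and become macrophages, and interferon-γ drives the contrasting program called classical activation.

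Values are the normalized counts that the authors deposited. The depth implied by the smallest step between values ranged from 8600000 to 73900000 reads per library (median 39350000) and was lowest in a PBS-only library, the right leg of m868. The first principal component of all tested genes carried 77.3% of the variance and placed the HRS leg of m866 at 2.84, between the other 4 HRS legs (-123 to -65.4) and the 9 PBS libraries (37.9 to 79.3). The share of mitochondrial transcripts was 11.1% in that leg, 3.41% to 6.29% in the other 4 HRS legs and 9.69% to 13.1% in the PBS libraries. Summed over 10 skeletal muscle genes, the same leg was at 203000 normalized counts against 48600 to 120000 in the other HRS legs and 150000 to 245000 in PBS muscle. The HRS leg of m864 lay at the other end, with the lowest sum. Results that turn on either leg are given with and without it.

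The promoters of *Retnla* and *Chil3* are shown because both genes are STAT6 targets by reputation and yet differed in direction in HRS muscle. The sequences are those of RefSeq on GRCm38.p6, from 250 bases before to 50 bases after the start, 5′ to 3′ on the gene's strand, at chr16:48842359-48842658 (plus strand) and chr3:106167515-106167814 (minus strand). Capitals mark the STAT6 letters, TTC and GAA separated by any 4 bases, a pattern that reads the same on both strands.
Retnla: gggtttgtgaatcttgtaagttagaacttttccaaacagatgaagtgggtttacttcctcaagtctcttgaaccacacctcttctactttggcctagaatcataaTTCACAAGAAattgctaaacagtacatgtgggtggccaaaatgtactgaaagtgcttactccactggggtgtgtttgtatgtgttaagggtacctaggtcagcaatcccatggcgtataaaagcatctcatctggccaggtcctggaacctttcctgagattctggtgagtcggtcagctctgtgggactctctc
Chil3: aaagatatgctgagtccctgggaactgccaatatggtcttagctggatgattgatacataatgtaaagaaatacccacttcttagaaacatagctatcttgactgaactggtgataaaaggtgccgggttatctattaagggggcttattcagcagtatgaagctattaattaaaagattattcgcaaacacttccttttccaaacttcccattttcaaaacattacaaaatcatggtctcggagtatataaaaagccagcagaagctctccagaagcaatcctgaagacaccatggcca
The *Retnla* window held these letters 1 time, with the last base 136 bases upstream of the start, and the *Chil3* window did not hold them. The start here is that of the RefSeq window, which for *Retnla* lies downstream of the gene start given below. Among 32851 mouse promoter windows of 300 bases, 6.95% held them. A window was found for 8 of the 9 genes (*Lyve1* had none in the table, *Folr2* had 2), and the only other match was in *Cbr2*. The PU.1 core GAGGAA, on either strand and not overlapping the STAT6 letters in these windows, was present in *Retnla*, *Mrc1* and *Cbr2* and in 28.3% of all windows. These matches describe the letters of the windows and do not show binding.

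The 9 genes did not move as a group in HRS muscle. Against the contralateral PBS leg, *Retnla*, *Cd163* and *Cd209f* were lower, *Chil3*, *Mrc1* and *Folr2* were higher, and *Lyve1*, *Timd4* and *Cbr2* differed little. The median log2 fold change of the 9 was -0.33, beside 0.08 for all 16414 genes tested. By the rule applied to all genes (limma, adjusted p below 0.05 and absolute log2 fold change above 1) 3 of the 9 were past the threshold in each direction. The background was 23.2% of tested genes in either direction, 16.9% higher and 6.27% lower, and nothing is read from this count because the genes were chosen with these values known. In 3 genes the level was lower in all 5 mice (8.97% of tested genes) and in 2 it was higher in all 5 (26.3%). *Retnla* and *Cd163* lay below all contralateral legs without overlap (3.19% of tested genes) and below all 9 PBS libraries (1.22%), and *Chil3* lay above them (18.3% and 16%). The RNA was extracted from whole muscle, so a lower level cannot be told apart as fewer cells of a type or as less RNA per cell.

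**Figure D1:**
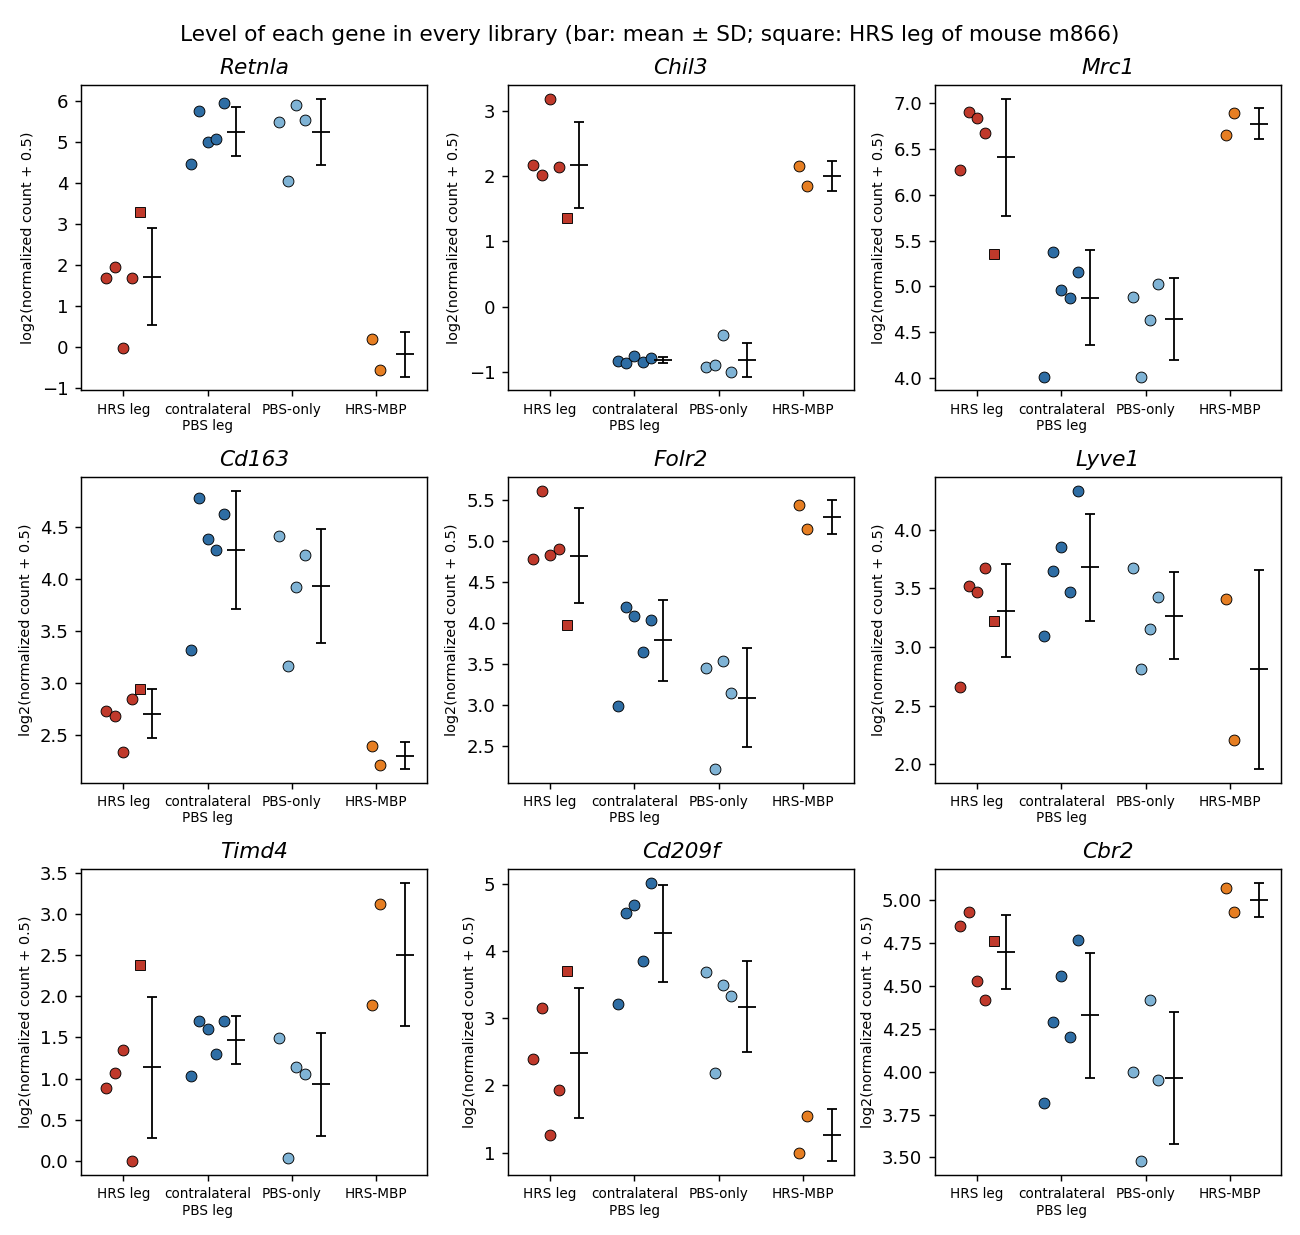
Level of each of the 9 genes in all 16 libraries, as log2(normalized count + 0.5) on the vertical axis, by group, with the mean and SD beside the points and a square for the HRS leg of m866. *Retnla* and *Cd163* lie lower in all 5 HRS legs than in all 9 PBS libraries, *Chil3* lies higher in all 5, and *Lyve1* overlaps throughout.

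*Retnla* encodes RELMα (FIZZ1), a secreted cysteine-rich protein of alternatively activated macrophages that is also made by other cells, adipocytes among them (chr16:48842551-48844461, GRCm38). In the HRS legs of m862 to m866 its normalized counts were 2.73, 3.33, 0.482, 2.69 and 9.19. In the PBS legs of the same mice they were 21.4, 53.3, 31.3, 33.1 and 61.0. All HRS legs lay below all PBS legs, and no leg of a PBS-only mouse (43.7 and 16.1 in m867, 58.8 and 45.4 in m868) reached down to the highest HRS leg. The group means were 3.68 ± 3.26 (SD, n = 5) in HRS legs, 40 ± 16.5 (n = 5) in contralateral PBS legs and 41.0 ± 17.9 (n = 4) in PBS-only legs. Within mice, the HRS leg held 1.54% (m864) to 15.1% (m866) of the level in the PBS leg. The log2 fold change was -3.53 (SE 0.494; 95% interval -4.58 to -2.48), and the mean over mice was -3.75 without m866. Of the 1472 tested genes that were lower in the HRS leg of all 5 mice (8.97% of those tested), *Retnla* was first by this difference, followed by *Ces1d* at -2.99 and *Nnat* at -2.77.

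Adipocyte transcripts moved in the same direction as *Retnla*. Of 10 adipocyte genes, 9 were called lower in HRS than contralateral legs (limma), the largest differences being in *Lep* (leptin) at -2.43, *Pck1* at -2.30 and *Cfd* (adipsin) at -2.23 on the log2 scale. The count was 4 without the HRS leg of m864, 5 without that of m865, 5 without the PBS leg of m866 and 5 with libraries scaled to the same total. Against PBS-only mice 3 of the 10 were called lower (*Pck1* -1.92, *Retn* -1.91 and *Plin4* -1.65). Their summed level was 205 to 1130 normalized counts in HRS legs, 827 to 5930 in contralateral PBS legs and 904 to 1270 in PBS-only legs, with none of the 10 at 0 throughout a group. It was 355 and 503 in the HRS-MBP libraries. The highest sum, 5930, and the highest *Retnla* level, 61.0, were in the same library, the PBS leg of m866. In the other 4 contralateral legs the adipocyte sum was 827 to 1300 while *Retnla* spanned 21.4 to 53.3. Among HRS legs the lowest sum, 205, and the lowest *Retnla* level, 0.482, were both in m864, and the highest of both were in m866. In m865, m863 and m862 the sums were 370, 599 and 601, with *Retnla* at 2.69, 3.33 and 2.73. In m866 the HRS leg had an adipocyte sum of 1130, within the range of the PBS-only legs, and *Retnla* at 9.19 was below all of those. The part of adipocyte RNA in the difference of *Retnla* was not tested.

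*Chil3* encodes Ym1, a chitinase-like lectin secreted by macrophages, and lies at chr3:106147554-106167564. It was at 4.01, 3.55, 8.54, 3.88 and 2.06 in the HRS legs of m862 to m866, and at 0.0494 to 0.0924 in their PBS legs. In the PBS-only legs it was at most 0.243. Every HRS leg was above every PBS library, and the mean was 4.41 ± 2.44 (n = 5) against 0.0691 ± 0.0173 (n = 5) in contralateral legs. The deposited values were worth 1364 reads in the 5 HRS legs and 12 in the 5 contralateral legs, and the ratio of levels was 68.8 (95% interval for counting error only, 39.3 to 134; 54.8 without the HRS leg of m864). On the log2(value + 0.5) scale the same difference was 2.98 (SE 0.25), where the pseudocount exceeds the level in PBS muscle. It was 4.40 with a smaller pseudocount and 1.56 with one of 2. *Chil3* passed the filter on low values (a mean of at least 0.5) only through the HRS and HRS-MBP libraries, its mean over the 9 PBS libraries being 0.0730. Of the 75-base words in its transcripts, 13% also occur in another gene, most often *Chil4*, which the table does not list, so reads may have been shared.

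Receptors for uptake fell on both sides. *Mrc1* encodes the mannose receptor CD206, an endocytic receptor of resident and alternatively activated macrophages (chr2:14229392-14332057). It was at 76.5, 119, 113, 102 and 40.4 in HRS legs and at 15.7, 41.1, 30.7, 28.9 and 35.1 in the PBS legs of the same mice. *Mrc1* was higher in the HRS leg of all 5 mice, but by 0.20 on the log2 scale in m866 against 1.52 to 2.25 in the others. The mean was 90.1 ± 32.2 in HRS legs and 30.3 ± 9.42 in contralateral legs (n = 5 each; log2 fold change 1.53, SE 0.299). The HRS leg of m866, at 40.4, was the only HRS leg within the range of PBS muscle, whose highest library was at 41.1.

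*Cd163* encodes the hemoglobin-haptoglobin scavenger receptor (chr6:124304656-124330527). Its levels were 6.14, 5.92, 4.54, 6.64 and 7.17 in HRS legs and 9.49, 27.0, 20.3, 18.9 and 24.2 in the contralateral legs. The HRS legs were close to each other, at 6.08 ± 0.988, and all of them were below all 9 PBS libraries, the lowest of which was a PBS-only leg at 8.41. The log2 fold change was -1.57 (SE 0.261) against contralateral legs and -1.22 (SE 0.277) against PBS-only legs. *Cd163* differed in direction from *Mrc1* in each of the 5 mice.

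*Cd209f* encodes a mouse C-type lectin related to DC-SIGN (chr8:4102787-4105835). It was at 4.78, 8.36, 1.90, 3.30 and 12.5 in HRS legs and at 8.74, 23.1, 25.2, 13.9 and 31.8 in the PBS legs of the same mice, lower in each mouse although the groups overlapped. The log2 fold change was -1.77 (SE 0.443) against contralateral legs but -0.68 (SE 0.469) against PBS-only legs, whose level was 9.18 ± 3.62 (n = 4) beside 20.5 ± 9.19 (n = 5) in contralateral legs. Of its 75-base words, 23.5% are shared with *Cd209g*, so the counts of this pair may be mixed.

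*Folr2* encodes folate receptor β, carried by resident macrophages of many tissues (chr7:101839988-101857194). It was at 27.0, 48.3, 27.9, 29.4 and 15.3 in HRS legs and at 7.40, 17.8, 16.5, 11.9 and 15.8 in contralateral legs, thus higher in the HRS leg of 4 of 5 mice and nearly equal in m866. The log2 fold change was 1.04 (SE 0.306), and the mean over the other 4 mice was 1.31. Over the alternatives run it ranged from 0.84 to 1.44, so *Folr2* was not past the fold threshold under all of them.

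*Lyve1* encodes a hyaluronan receptor of lymphatic endothelium and of perivascular resident macrophages (chr7:110850607-110863239). It was at 5.84, 10.9, 10.6, 12.2 and 8.85 in HRS legs, and at 8.01, 12.0, 13.9, 10.6 and 19.6 in contralateral legs. The groups overlapped and the log2 fold change of -0.37 (SE 0.269) was smaller than the largest difference between the legs of a PBS-only mouse (0.86). With libraries scaled to the same total it was 0.03, and the mean over mice without m866 was -0.18. Beside it, of 7 tested lymphatic genes 4 were called higher, *Ccl21a* (a lymphatic chemokine, 2.18), *Pdpn* (podoplanin, 1.74), *Thy1* (1.59) and *Mmrn1*. The summed level of the 8 listed was 79.2 to 217 in HRS legs against 39.7 to 68.6 in PBS muscle. *Thy1* alone was at 30.6 to 114 in HRS legs, and what part other cell types had in this sum was not tested. *Prox1*, the transcription factor that defines lymphatic endothelium, was not called (0.47, adjusted p = 0.0830 by limma). *Flt4* (0.59) and *Reln* (0.46) were not called either. What part of *Lyve1* RNA came from lymphatic vessels was not tested.

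*Timd4* encodes TIM-4, a phosphatidylserine receptor of long-lived resident macrophages (chr11:46810800-46844332). It was low everywhere, at 1.35, 1.60, 2.05, 0.498 and 4.71 in HRS legs and 1.54, 2.75, 2.54, 1.97 and 2.75 in contralateral legs. It was lower in the HRS leg of 4 mice and higher in m866, and the log2 fold change of -0.33 (SE 0.380) was within the spread of the HRS legs (log2 SD 0.86). Without m866 the mean over mice was -0.58.

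*Cbr2* encodes carbonyl reductase 2, an enzyme long used as a marker of resident tissue macrophages (chr11:120729489-120732114). Its levels were 28.3, 29.9, 22.6, 21 and 26.6 in HRS legs and 13.7, 19.1, 23.0, 17.9 and 26.8 in contralateral legs. The difference was small (log2 fold change 0.37, SE 0.184) and was at or near 0 in m864 and m866. Against PBS-only legs (15.5, 10.6, 20.9 and 15.0) it was 0.74 (95% interval 0.32 to 1.15), and all HRS legs lay above them (26.6% of tested genes). The transcript shares 8.31% of its 75-base words with *Gm11771*.

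**Figure D2:**
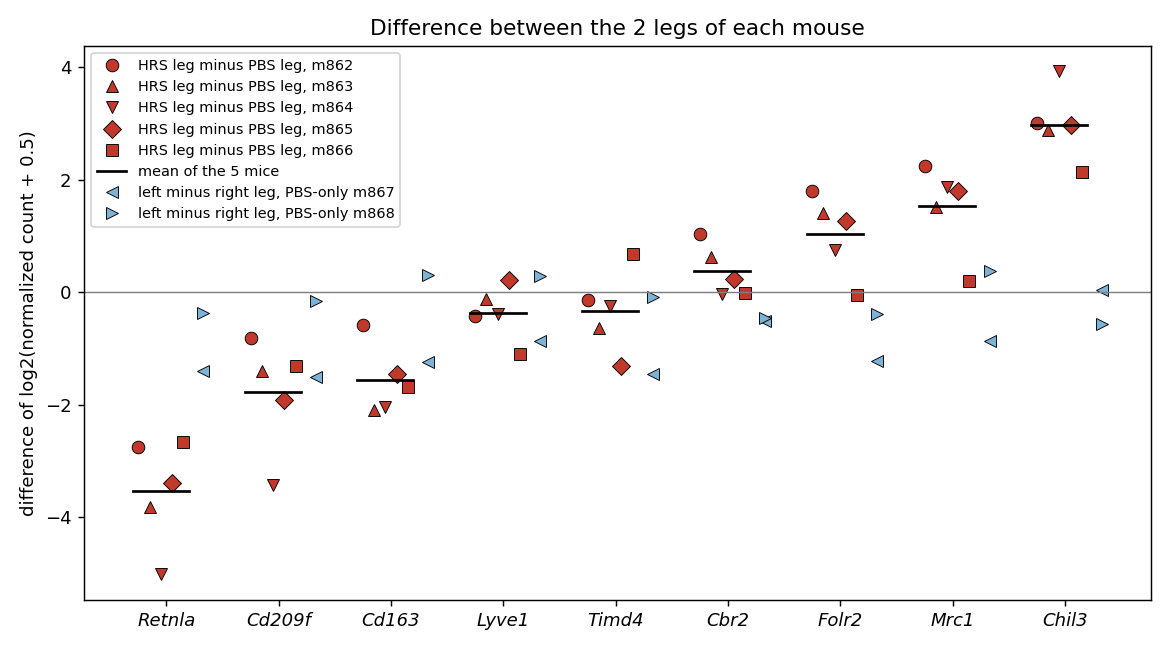
Difference of log2(normalized count + 0.5) between the legs of each mouse for the 9 genes, ordered by the mean of the 5 mice (black bar). Red points are HRS minus PBS leg and blue triangles are left minus right leg of the 2 PBS-only mice; *Retnla*, *Cd209f* and *Cd163* are below 0 in all 5 mice, and *Chil3* and *Mrc1* above 0 in all 5.

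The leg-to-leg difference of PBS-only mice gives a scale for these values. Its largest size was 1.41 for *Retnla*, 0.87 for *Mrc1*, 1.25 for *Cd163*, 1.23 for *Folr2* and 1.51 for *Cd209f*. Inside it lay *Cd163* in m862 (-0.59), *Mrc1* in m866 (0.20), and *Folr2* in m864 (0.75) and m866 (-0.05). *Cd209f* was inside it in m862 (-0.81), m863 (-1.41) and m866 (-1.31). The smallest difference of *Retnla*, the gene chosen for its consistency, was -2.67. PBS libraries also varied together in these genes. The left leg of PBS-only m867 had the lowest PBS level for 7 of the 9 genes and was among the lowest 3 for all 9, the PBS leg of m862 was among the lowest 3 for 8, and the PBS leg of m866 was among the highest 3 for all 9.

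The comparison of contralateral PBS legs with PBS-only mice asks whether these genes differed in the PBS leg of a mouse whose other leg received HRS. The difference holds no HRS leg, so it was tested. The contralateral legs were among the values on which the genes were chosen, which these p-values do not take into account. *Chil3*, worth 12 reads over the 5 contralateral legs, could not have shown a fall here. A rise could have been seen, and the log2 fold change of *Chil3* was 0 (95% interval -0.57 to 0.56). None of the other 8 was called (limma), where the background was 0.00609% (1 of 16414 genes, *Nr4a2*, an orphan nuclear receptor, log2 fold change -1.88, adjusted p = 0.0354; 902 genes, 5.5%, at an unadjusted p below 0.05). The log2 fold changes of the 8 ran from 0.01 for *Retnla* to 1.09 for *Cd209f*, and their adjusted p-values were 0.867 or higher. For *Retnla* the difference was 0.01 (95% interval -1.10 to 1.12), for *Cd163* 0.35 (-0.24 to 0.94) and for *Mrc1* 0.23 (-0.44 to 0.91), so that differences of up to about these limits could not be seen. *Cd209f* (0.09 to 2.09) and *Folr2* (0.70; 0.01 to 1.38) had intervals that just left out 0, at adjusted p = 0.867 and 0.908. Exact two-sided permutation of the 5 against 4 libraries gave p = 0.0714 for *Cd209f* and 0.0873 for *Folr2* and *Timd4*, the lowest of the 8, where the design allows 0.00794. The groups overlapped for all 9 genes (2.58% of tested genes did not overlap). The 4 PBS-only libraries come from 2 mice, so these p-values measure the spread between libraries rather than between animals.

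The HRS-MBP libraries were set beside the same 9 PBS libraries, and no likeness to HRS legs is read from values that share these controls. *Retnla* was at 0.649 and 0.178 in m860 and m861, and *Cd163* at 4.73 and 4.14, below every PBS library. *Chil3* was at 3.97 and 3.07, *Mrc1* at 99.9 and 118 and *Folr2* at 42.8 and 34.9, above every PBS library. *Timd4* was at 3.22 and 8.18, also above every PBS library, which the HRS legs were not. *Cd209f* was at 1.49 and 2.40, below every PBS library, *Lyve1* at 10.2 and 4.11, and *Cbr2* at 33.1 and 30.0. Against PBS-only mice the log2 fold changes were -5.41 for *Retnla*, -1.91 for *Cd209f*, -1.63 for *Cd163*, 2.81 for *Chil3*, 2.20 for *Folr2*, 2.13 for *Mrc1* and 1.58 for *Timd4*. Thus 5 genes lay above and 3 below all PBS libraries, where 33.3% and 27% of tested genes did, since 2 libraries are easily separated from 9.

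The test of HRS-MBP against HRS legs called none of the 9 genes (limma; background 0.463%, 76 of 16414; 14.4% at an unadjusted p below 0.05). *Retnla* had the largest difference, -1.89 (SE 0.653, adjusted p = 0.213; 95% interval -3.28 to -0.50). With other pseudocounts it was -2.51 and -1.07. The HRS leg of m864, at 0.482, lay between the HRS-MBP libraries, and without it the difference was -2.32 and was called (adjusted p = 0.0197; 0.0197 to 0.999 over all alternatives). *Timd4* differed by 1.37 (adjusted p = 0.242; 0.30 to 2.44), and *Cd209f* by -1.22 (adjusted p = 0.352; -2.47 to 0.02). The other 6 genes differed by -0.50 to 0.47. In *Cbr2* alone both HRS-MBP libraries were above all HRS legs (7.1% of tested genes). With 2 libraries against 5, exact two-sided permutation cannot give a p below 0.0476, and it gave 0.143 for *Retnla*. The proteins, concentrations and mice differed together between these groups, so their effects cannot be told apart.

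Genes that macrophages of every kind use were higher in HRS muscle. All 16 pan-macrophage genes were called higher in HRS than contralateral legs (limma, median log2 fold change 3.43), with *Ctss* (cathepsin S) at 4.75, *Aif1* (IBA1) at 4.23 and *Adgre1* (F4/80) at 4.13. Their summed level was 1550 to 8300 normalized counts in HRS legs, the lowest being m866, 146 to 444 in PBS libraries and 7430 in both HRS-MBP libraries. After subtraction of the mean log2 level of these 16 genes in each library, the spread of the leg differences among mice was smaller for *Mrc1* (SD 0.23, against 0.79 before) and larger for *Retnla* (1.66 against 0.95) and *Cd163* (1.02 against 0.61; n = 5 mice each). The subtraction moves the mean difference of each gene by the same amount and leaves their order as it was. On this scale 8 genes were lower in all 5 mice, from -6.99 for *Retnla* to -1.93 for *Mrc1*, and below all PBS libraries, as were 95.4% of all tested genes, so nothing is read from this about the 8. The value of *Chil3*, -0.47, is set by the pseudocount in PBS libraries. What part this rise has in the levels of the 9 genes was not tested.

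Genes of the IL-4 and IL-13 axis were tested as well. *Il4* itself was at most 0.115 normalized counts in any HRS or PBS library and under the filter, and *Il13* is not listed in the table. Of 11 tested genes of the axis, 5 were called higher and none lower against contralateral legs (median 0.95), namely *Il2rg* (the common γ chain, 3.96), *Il13ra1* (2.49), *Il33* (1.51), *Jak3* (1.3) and *Il4ra* (1.29, adjusted p = 0.00159 by limma). What part lymphocytes had in the rises of *Il2rg* and *Jak3* was not tested. *Il4ra* was at 92.2 ± 38.8 in HRS legs and 37.3 ± 16.5 in contralateral legs. *Stat6* was just under the fold threshold against contralateral legs (0.94, SE 0.155, adjusted p = 0.000210) and past it against PBS-only mice (1.05, adjusted p = 0.000133). Against PBS-only mice 6 genes of the axis were called higher (18.9% of all tested genes were) and 1 lower (5.87%), *Irs2*, an adaptor of insulin and IL-4 signalling (-1.49, adjusted p = 0.000245, limma). Against contralateral legs the count of higher genes was 8 without the HRS leg of m866, and also 8 with libraries scaled to the same total. The count of lower genes was 1 without that leg and 1 under quantile normalization.

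Other genes of alternative activation lay on both sides. Of 18 tested against contralateral legs, 7 were called higher, 3 lower and 8 neither (median 0.37). The rises included *Clec7a* (the β-glucan receptor dectin-1, 3.52) and *Socs1* (2.76), and the falls were *Ccl24* (eotaxin-2, -1.64), *Cish* (-1.45) and *Mgl2* (the lectin CD301b, -1.09). Against PBS-only mice, beside the same shares of all genes (18.9% higher, 5.87% lower), 7 were called higher and only *Ccl24* lower (-1.59), with *Cish* at -0.57 (adjusted p = 0.401) and *Mgl2* at -0.74 (adjusted p = 0.0526, limma). Against contralateral legs the count of falls was 1 without the HRS leg of m864, 1 without the PBS leg of m866, 1 with a pseudocount of 2 and 1 with libraries scaled to the same total. Of 25 other resident macrophage genes, 8 were called higher, 4 lower and 13 neither (median 0.15). *Siglec1* (sialoadhesin, 2.48), *Ninj1* (2.11) and *Stab1* (stabilin-1, 2.07) rose most, and *Cd209b* (-1.98), *Cd209d* (-1.44), *Cd209g* (-1.36) and *Wwp1* (-1.02) fell. The lectins of the *Cd209* cluster on chromosome 8 were thus lower together with *Cd209f*, apart from *Cd209a*, a dendritic cell gene, at 0.08 (adjusted p = 0.840). *Cd209c* and *Cd209e* were below the filter. *Wwp1* was at 228 ± 46.1 in contralateral legs, where *Csf1r* was at 37.3 ± 12.2. What part other cell types had in the fall of *Wwp1* was not tested. Against PBS-only mice *Cd209g* was not called (-0.59, adjusted p = 0.239, limma), and 3 genes of this list were called lower. Against contralateral legs the count was 2 with a pseudocount of 2, with a mean of at least 2 as the filter or with libraries scaled to the same total.

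**Figure D3:**
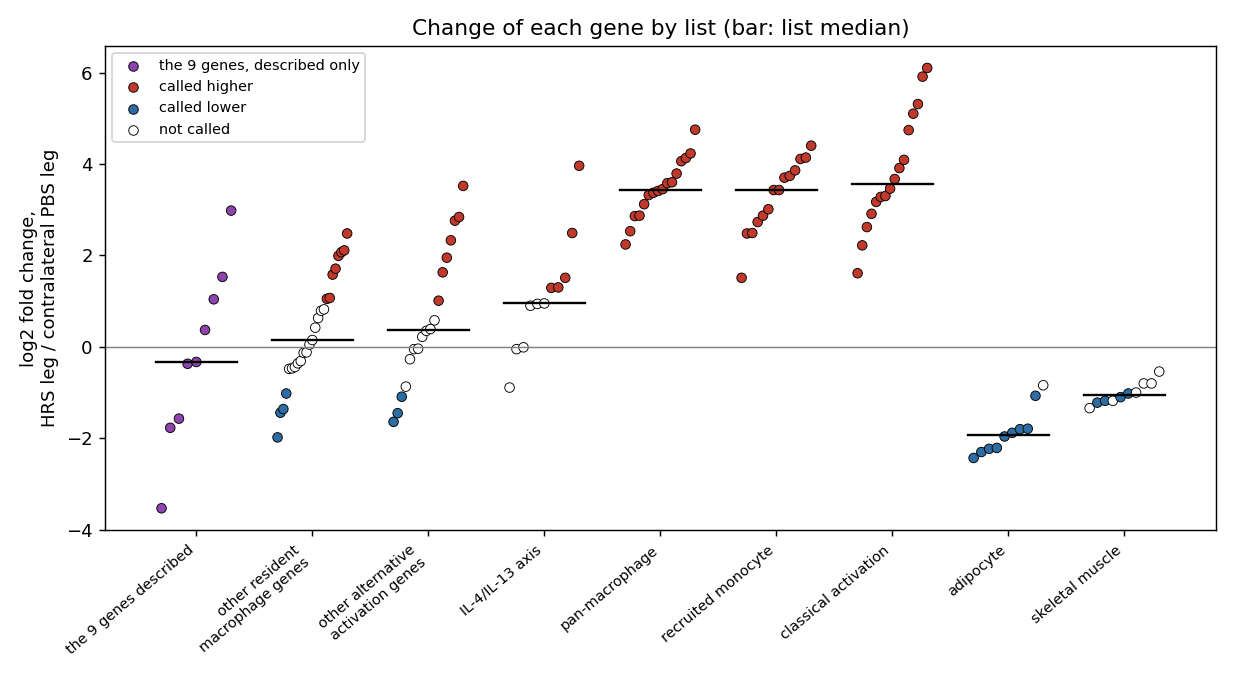
log2 fold change of HRS against contralateral PBS legs (vertical axis) for each gene of 9 groups, ordered within each list, with the list median as a bar; purple marks the 9 genes, which are described only. All tested pan-macrophage (16), recruited monocyte (14) and classical activation (16) genes are above 0, whereas the resident and alternative activation lists spread on both sides of 0.

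The lists of recruited monocytes and of classical activation were called higher throughout, and what part lymphocytes had in them was not tested. The call was made for all 14 monocyte genes (median 3.43; *Itgal*, also used by T and NK cells, 4.40, *Ly6c2* 4.14, *Ly6i* 4.11) and for all 16 tested genes of classical activation (median 3.57; *Marco* 6.10, *Acod1*, the itaconate enzyme, 5.91, *Cxcl9* 5.31). Summed levels of the monocyte genes were 333 to 1920 in HRS legs and 86.4 to 237 in PBS libraries, of which *Fn1* (fibronectin), which fibroblasts also make, accounted for 164 to 1510 in HRS legs. What part fibroblasts had in this sum was not tested. Some genes of both lists averaged under 0.5 in both PBS groups and passed the filter only through HRS and HRS-MBP libraries. Examples are *F10* (0.319 ± 0.249 in contralateral and 0.364 ± 0.242 in PBS-only legs) and *Tnf* (0.222 ± 0.217 and 0.294 ± 0.187). For these a call of higher is in part set by the filter. Of 8 growth factor genes, 6 were called higher, with *Csf2rb* (2.98), *Csf2ra* (2.68) and *Csf1r* (2.53) first. Among ligands *Csf1* was higher (1.03, adjusted p = 0.00196) and *Il34*, the other ligand of CSF1R, was at 6.48 ± 0.754 in HRS and 6.47 ± 1.73 in contralateral legs (0.03, adjusted p = 0.882, limma). No gene of any list here was called between the 2 PBS groups or between HRS-MBP and HRS legs. Without the HRS leg of m864, 8 classical activation, 6 monocyte, 2 pan-macrophage, 2 alternative activation and 2 dendritic cell genes were called higher in HRS-MBP than HRS legs, with 1 gene higher in each of 3 other lists. Single genes were also called without m860 (alternative activation, higher), and among the resident genes 1 was called lower without the HRS leg of m864 and 1 under quantile normalization.

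Paralogs of the 9 genes are given because related sequences can share reads or differ in cell of origin. In the resistin family, *Retnlg*, a neutrophil gene beside *Retnla* on chromosome 16, was called higher (1.73, adjusted p = 7.23e-05), and *Retn* (resistin), an adipocyte gene in mice, was called lower (-2.21, adjusted p = 0.0129). *Retn* was at 40.9 ± 54.1 in contralateral legs because 1 leg was at 137. *Retnlb* is not listed in the table. *Chil1* was called higher with *Chil3* (1.44, adjusted p = 0.00909), from 0.275 ± 0.346 to 1.80 ± 1.06 normalized counts. Of the carbonyl reductases, *Cbr3* was called higher (1.12, adjusted p = 0.00674), and *Cbr1* was not past the fold threshold (-0.35). *Havcr2* (TIM-3), a relative of *Timd4*, was called higher (2.64, adjusted p = 0.000200), as was *Mrc2*, a relative of *Mrc1* (1.67, adjusted p = 0.00218). *Stab2*, like *Lyve1* a hyaluronan receptor, was called lower (-1.46, adjusted p = 8.16e-05). These p-values are from limma over all tested genes. *Retnlg* was under the worth of 3 reads in all PBS-only legs, and *Chil1* averaged 0.275 in contralateral legs. Both passed the filter through libraries where they were high, so their calls are in part set by it.

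Across the 16 libraries each of the 9 genes was compared with every tested gene by Pearson's r, as a description, since the libraries share groups, mice and scaling. *Retnla* was most like *Laptm4b* (0.965), *Gm34934* (0.960) and *Celsr2* (0.95). *Cd163* was most like *Retnla* (0.933), *Ccl24* (0.923) and *Cd209b* (0.915), all lower in HRS muscle. *Chil3* was most like *Eif2ak2* (0.991), which encodes the interferon-induced kinase PKR, *Arpc4* and *Ms4a4c* (0.985 each). *Mrc1* was most like *Man1a* (0.992), *Ace* and *Svep1* (0.987 each), and *Folr2* was most like *Pltp* (0.955), *Rnase4* and *Rin2* (0.951 each). *Cd209f* was most like *Cd209g* (0.987), with which it shares sequence, then *Atp9a* (0.913) and *Lrrc36* (0.903). *Cbr2* was most like *Folr2* (0.886), the lectin gene *Clec10a* (0.867) and *Aste1* (0.866). *Lyve1* was most like *Slc16a12* (0.890), *Prkd1* (0.806) and *Flvcr2* (0.779), and *Timd4* was most like *Dpep1* (0.915), *Edn1* (0.827) and *Acer2* (0.781).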

How the data were processed

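The authors deposited normalized counts per gene, a signal without negative values whose scaling they do not state. The submitters' processing notes name STAR 2.7.8a, limma and the builds mm39 and GRCm39, but for 25652 genes matched by symbol and chromosome to GENCODE M21 (GRCm38) 99.0% of the deposited coordinates were the same, so positions are given on GRCm38. Strand use in counting is not given in the sources used here. Low values (up to 20 steps) were whole multiples of 1 step, within 0.02 steps, for 75.4% to 77.7%, so whole reads could not be restored and count models were left out. The step gave the worth of 1 read and the implied depth.

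Tests used limma 3.58.1 in R 4.3.3 (lmFit, eBayes with trend) on log2(normalized count + 0.5) for 16414 genes (those averaging 0.5 or more over the 16 libraries), in 1 fit of 4 groups without covariates, with Benjamini-Hochberg adjustment and calls at 0.05 and an absolute log2 fold change above 1. Fold changes on this scale understate those of low genes. Genes averaging under 0.5 in PBS muscle passed only through HRS or HRS-MBP libraries, which in part sets their calls of higher. Permutation used scipy 1.17.1. The fit was tested on simulated data. The 9 genes and all lists (IL-4/IL-13 axis, other alternative activation and resident genes, pan-macrophage, recruited monocyte, classical activation, growth factors, lymphatic, eosinophil, neutrophil, dendritic, adipocyte, fibroblast, skeletal muscle, paralogs) were chosen with earlier results of these data known. Named besides the 9 were up to 3 called rises and falls per list, *Il4*, *Il13*, *Il4ra*, *Stat6*, *Csf1*, *Il34*, paralogs, the 3 most alike genes, and a gene called between PBS groups. One gene that this rule names is not reported here. *Ces1d*, *Nnat*, *Jak3*, *Mmrn1*, *Prox1*, *Flt4*, *Reln*, *Irs2*, *Plin4*, *Wwp1*, *Cd209c*, *Cd209e*, *F10*, *Tnf* and *Ly6g* were named after their values were seen. Mice are separate animals, and same mouse numbers mark legs of 1 animal in the labels, so legs are paired. Deviations of paired legs from group means correlated across genes at 0.119, 0.163, 0.0972, -0.0256 and -0.366 (m862 to m866). Alternatives covered pseudocount, filter, scaling, variance prior, block, libraries fitted, averaging of PBS-only legs and each library left out. Human and single-cell data were not analysed here.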

Additional observations from a re-analysis of the deposited data

Results flagged for a closer look

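In the PBS-only group, *Chil3* was at 0.243 normalized counts in the right leg of m868, which stood apart from the other 3 PBS-only legs (0 to 0.0404), with a gap of 0.833 of the group's range against a critical value of 0.829. It was 1 of 27 groups of 4 or 5 libraries examined, and chance alone flags about 1 group in 20. The value is worth 2 reads in the library with the lowest implied depth.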

How the results depend on the processing

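The directions of *Retnla*, *Cd163*, *Cd209f*, *Chil3*, *Mrc1*, *Folr2* and *Cbr2* between HRS and PBS groups were kept under all alternatives run. *Retnla* against contralateral legs ranged from -3.92 to -2.97, and *Cd163* from -1.92 to -1.18. Against PBS-only legs *Lyve1* (0.04) turned to -0.40 and *Timd4* (0.21) to -0.27 under quantile normalization. Without the HRS leg of m866 *Timd4* there was -0.10, and without the left leg of m867 *Timd4* was -0.09 and *Lyve1* -0.11. *Lyve1* was -0.01 without the HRS leg of m863 and -0.05 without that of m865. Between HRS-MBP and PBS-only legs *Lyve1* (-0.45) was 0.15 without m861. Scaling to the same total moved the median of all genes between HRS and contralateral legs from 0.08 to 0.45 and the share of calls that were higher from 73.0% to 92.8%, and quantile normalization moved them to -0.16 and 56.2% (against PBS-only mice 76.3%, 92.4% and 54.5%). With mouse as a replicate block 3652 genes were called against 3810 without it. In pairs of 1 leg per arm the block leaves mean differences as they are by construction.

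Between contralateral and PBS-only legs, 1 gene was called, 0 with a smaller pseudocount, no filter, same-total scaling, only the 2 groups in the fit or PBS-only legs averaged per mouse, and 2 under quantile normalization (0 to 2 with a library left out, 2 without contralateral m862 and 0 without contralateral m863, m864 or m865 or any PBS-only leg). *Retnla* there (0.01) was -0.01 under same-total scaling, -0.03 under quantile normalization and -0.38 to 0.23 with a library left out. Between HRS-MBP and HRS legs, 76 genes were called, 35 with a filter of 2 and 4 with only these groups fitted. The count was 25 to 590 with a library left out (590 without HRS m864, 180 without HRS m866, 135 without HRS-MBP m860 and 25 without m861). *Chil3* there (-0.17) ranged from -0.38 to 0.08 and *Lyve1* (-0.50) from -1.10 to 0.11 with a library left out, above 0 without HRS m864 and without HRS-MBP m861, respectively. The cause of these shifts was not tested. Depth limits *Chil3* in PBS muscle and *Retnla* in HRS-MBP m861 (worth 8 reads).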

Other observations

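Other cell types were also read in the same libraries. Of 9 tested neutrophil genes, 8 were called higher in HRS than contralateral PBS legs (limma), with *Csf3r* (the G-CSF receptor) at 4.19, *S100a9* at 3.68 and *S100a8* at 3.29 on the log2 scale, and *Ly6g* was below the filter. The count was 5 with a pseudocount of 2 and 4 with a filter of 2. The summed level of the 10 listed was 10.7 to 159 in HRS legs, 1.09 to 4.89 in contralateral legs and 0.736 to 3.15 in PBS-only legs. In PBS-only legs 4 of the 10, *Ly6g* among them, were under the worth of 3 reads throughout. Genes this low in PBS muscle pass the filter only through libraries where they are high, so the count of calls is in part set by the filter. Of 8 dendritic cell genes, 6 were called higher, with *Itgax* (CD11c) at 4.13, *Ccr7* at 2.65 and *Flt3* at 2.18, and 3 with a filter of 2. No eosinophil gene passed the filter, and the summed level of 4 listed ones was 0.405 to 1.91 in HRS legs, 0.128 to 0.969 in contralateral legs and 0.196 to 0.607 in PBS-only legs.

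Of 8 fibroblast genes, 3 were called higher, *Col1a1* (3.40), *Col3a1* (2.98) and *Lum* (1.75), with summed levels of 2100 to 18800 in HRS legs, the lowest being m866, and 959 to 2380 in PBS muscle. The count was 5 without the HRS leg of m866 and 6 with libraries scaled to the same total. Of 10 skeletal muscle genes, 4 were called lower, the largest falls among these 4 being *Tnni2* (-1.22), *Ckm* (-1.18) and *Tnnt3* (-1.10). Against PBS-only mice 1 was called lower (*Tnni2*, -1.04). The count against contralateral legs ranged from 0 to 7 over the alternatives. It was 0 under both other scalings and with mouse as a block, and 7 with a filter of 2. It was 0 without the HRS leg of m864 and 7 without that of m866, 2 without the PBS leg of m864, and 1 without the HRS leg of m863, the HRS leg of m865 or the PBS leg of m862, m863 or m865.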
